A study of Homo sapiens with 172 samples.

Results

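The genes of the Prader-Willi and Angelman region on chromosome 15 were examined for contact with the nuclear lamina in single haploid cells. The 8 genes were MKRN3, MAGEL2, NDN, SNRPN, UBE3A, ATP10A, OCA2 and HERC2, and they were chosen by position, from their hg19 coordinates. They overlapped 16 bins of 100 kb out of 26414 bins with reads in the genome and 510 on chromosome 15. The other 59 covered bins in the stretch from 22.5 to 31.0 Mb served as the comparison. The 4 paternally expressed genes were in contact in 33.6% of cells on average, with the bin that MKRN3 and MAGEL2 share counted for each. UBE3A and ATP10A, maternally expressed in some tissues only, averaged 7.74%, and the non-imprinted OCA2 and HERC2 averaged 6.55%.

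All cells were of KBM7, a human leukaemia line with a nearly haploid chromosome set, and of its clone 5-5, with ploidy 1N in the labels. They carried Dam, a bacterial adenine methyltransferase, fused to LaminB1, which was stabilised with 0.5 nM Shield1 for 15 h before harvest. From the smallest 2% of the cells, those with signal from both Fucci reporters, which mark cell cycle stage, went singly into wells. DNA that lies near the lamina is methylated at GATC by the fusion before harvest. After sorting it is cut there by DpnI, amplified and sequenced. There was a single group, of a single clone and with no untreated or Dam-only sample among the labels used here, so no test between groups was possible. Cells are not replicates, and SDs are over cells.

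Imprinting silences a gene on the copy inherited from the mother or from the father. MKRN3, MAGEL2, NDN and SNRPN are expressed from the paternal copy, and loss of that copy's expression underlies Prader-Willi syndrome. UBE3A is expressed from the maternal copy in neurons and from both copies in most other tissues, and loss of the maternal copy underlies Angelman syndrome. A haploid cell holds a single copy of the region, and its parental origin in this line is not given in the sources used here. No expression was measured. The lamina is the protein layer beneath the inner nuclear membrane, and the chromatin that touches it tends to be poor in active genes.

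GATC is the sequence that the assay reads, and the following promoter windows show it in capitals for NDN and SNRPN, the genes whose contacts were most alike over cells, and for HERC2, the gene least often in contact. They run 5′ to 3′ from 250 bases before to 50 bases after the gene start on the gene's own strand, from RefSeq on GRCh38.p14, whose coordinates differ from the hg19 bins. The NDN window is chr15:23687256-23687555 on the minus strand, the SNRPN window, shared with SNURF, is chr15:24954737-24955036 on the plus strand, and the HERC2 window is chr15:28322130-28322429 on the minus strand.
NDN: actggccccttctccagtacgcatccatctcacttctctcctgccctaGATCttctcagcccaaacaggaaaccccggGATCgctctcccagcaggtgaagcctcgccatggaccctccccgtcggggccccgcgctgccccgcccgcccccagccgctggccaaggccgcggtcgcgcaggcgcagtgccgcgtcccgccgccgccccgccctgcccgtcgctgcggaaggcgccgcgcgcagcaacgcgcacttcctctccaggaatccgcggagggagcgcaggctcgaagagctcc
SNRPN: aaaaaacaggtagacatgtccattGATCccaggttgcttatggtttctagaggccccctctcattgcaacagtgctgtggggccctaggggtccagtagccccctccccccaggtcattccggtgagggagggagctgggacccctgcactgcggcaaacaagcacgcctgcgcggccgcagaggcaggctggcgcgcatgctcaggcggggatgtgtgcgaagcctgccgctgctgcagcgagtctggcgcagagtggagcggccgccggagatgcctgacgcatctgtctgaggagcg
HERC2: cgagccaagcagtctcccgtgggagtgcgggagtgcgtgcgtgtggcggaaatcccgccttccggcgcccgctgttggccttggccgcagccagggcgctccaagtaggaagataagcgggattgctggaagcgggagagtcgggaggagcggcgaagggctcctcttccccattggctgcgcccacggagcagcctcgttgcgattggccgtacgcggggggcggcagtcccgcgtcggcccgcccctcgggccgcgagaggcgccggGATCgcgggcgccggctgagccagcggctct
The NDN window held 2 GATC, and the SNRPN and HERC2 windows held 1 each. GATC is its own reverse complement and was counted once per site. Of 35116 RefSeq promoter windows of this length, 41.7% held GATC and 11.1% held at least 2. The table listed 13 windows for the 8 genes, of which 7 windows, from 5 genes, held GATC. The windows also differed in CG dinucleotides, with 35 in NDN, 18 in SNRPN and 39 in HERC2, against a median of 14 over all windows. SNRPN had further windows, not shown, with 7, 2 and 11 CG and with 0, 2 and 2 GATC. Such letters describe the windows only and locate no contact within a bin.

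The deposited table gave, per bin, the ratio of observed over expected reads for 168 of the 172 labelled samples. Each of the 168 columns was best matched by the column 86 numbers away. In 82 of the 84 pairs the 2 columns differed by less than sampling noise, so the pairs were averaged and counted as 84 cells. The deeper column of a cell held 7134 to 418937 reads, with a median of 63700. Contact was called where the ratio of a bin, or the mean ratio over the bins of a gene, was 1 or more, and contact frequency was the percent of the 84 cells. Cells had 27.8% ± 6.55 (SD, n = 84) of covered bins in contact genome-wide and 19.7% ± 11.4 on chromosome 15. Intervals printed with frequencies below are exact Clopper-Pearson 95% intervals and cover counting error only. For 0 of 84 cells, the limit that 3 cells would give is 3.57%, and the exact interval reaches 4.30%.

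The paternally expressed genes came first along the chromosome. MKRN3, a makorin RING finger protein whose loss leads to early puberty, and MAGEL2, a MAGE family protein that works with ubiquitin ligases in endosomal protein recycling, lie within the same bin, 23800001 to 23900000, and cannot be told apart. Its ratio was 0 at the lowest, 0.266 at the median and 8.02 at the highest, in cell 7, and 35 of 84 cells had no read there. Contact was called in 26 cells, a frequency of 31.0% (21.3 to 42.0). Cells without reads and cells well above the expectation thus stood side by side in this bin. Cell 7 had 11042 reads in its deeper column, and its lower-numbered column held 4 reads over all the gene bins. Its high ratio thus rests on few reads.

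NDN encodes necdin, a MAGE family protein that restrains growth in neurons. Its bin, 23900001 to 24000000, had ratios of 0 at the lowest, 0.293 at the median and 13.4 at the highest, in cell 25, with 33 cells at 0. It was in contact in 29 cells, or 34.5% (24.5 to 45.7). SNRPN encodes SmN, a spliceosome core protein, and its upstream region lies at the imprinting centre that sets the state of the whole cluster. Its mean ratio over 3 bins, 25000001 to 25300000, was 0 at the lowest, 0.606 at the median and 6.60 at the highest, in cell 27, and 15 cells had no read in any of the 3. Contact was called in 32 cells, or 38.1% (27.7 to 49.3), and the bins taken singly had 33.3%, 34.5% and 34.5%. The intervals of MKRN3, NDN and SNRPN overlap, so their order is not beyond counting error.

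UBE3A, an E3 ubiquitin ligase, had a mean ratio over 2 bins of 0 at the lowest and at the median and 3.36 at the highest, in cell 28. Contact was called in 8 cells, or 9.52% (4.20 to 17.9). Its bins differed, with 3.57% (3 cells) for 25600001 to 25700000, where the gene starts on the minus strand, and 20.2% (17 cells) for 25500001 to 25600000. Both bins were in contact in 1 cell, the bin with the start alone in 2 and the other bin alone in 16. ATP10A, a phospholipid-flipping ATPase reported to be maternally expressed in some brain samples, reached 2.53 at most, in cell 77, with a median of 0.0238. It was in contact in 5 cells, or 5.95% (1.96 to 13.3), and its 3 bins had 4.76%, 3.57% and 8.33%.

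OCA2, which encodes a melanosome membrane transporter needed for pigment, had a median ratio of 0.0860 and a highest ratio of 1.91, in cell 21. Contact was called in 9 cells, or 10.7% (5.02 to 19.4). Its 4 bins had 13.1%, 19.0%, 8.33% and 0% in order along the chromosome, and the bin at 0 of 84, 28300001 to 28400000, holds its start and the end of HERC2. HERC2, a large ubiquitin ligase active in DNA repair, was in contact in 2 cells, or 2.38% (0.290 to 8.34), with 70 cells at 0 and a highest ratio of 3.15, in cell 29. In that cell, with 8372 reads in its deeper column, few reads make a ratio of 1. The intervals of UBE3A, ATP10A, OCA2 and HERC2 all lie below those of the paternally expressed genes. Among these 4 genes the intervals overlap. The separation holds for the mean over a gene's bins, which number 1 to 4. With contact in any bin counted, UBE3A had 22.6%, ATP10A 14.3%, OCA2 23.8% and HERC2 5.95%. By that rule MKRN3 had 31.0%, NDN 34.5% and SNRPN 54.8%. With contact in all bins required, UBE3A had 1.19%, ATP10A, OCA2 and HERC2 0%, and SNRPN 16.7%.

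**Figure D1:**
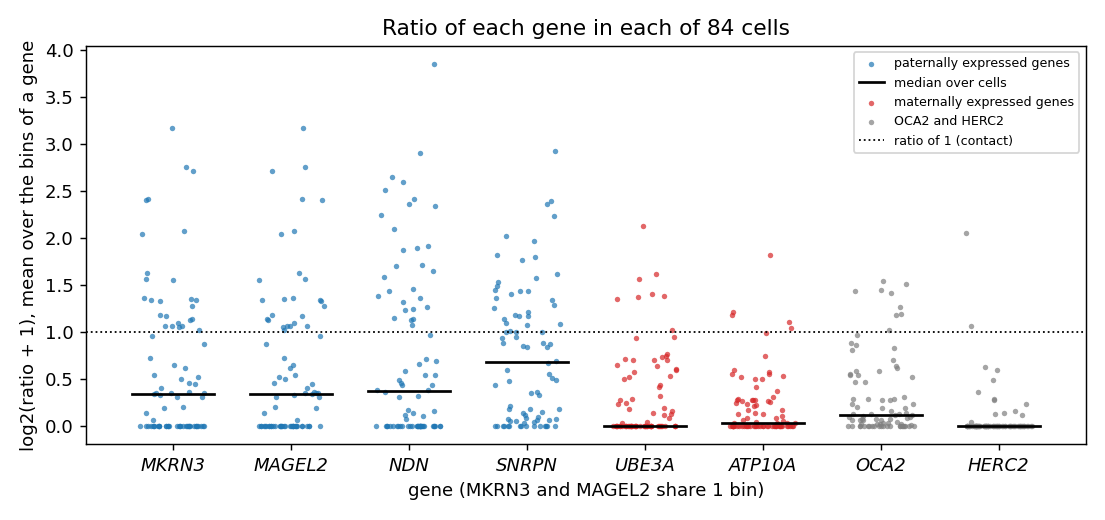
Ratio of each gene in each of 84 cells, as log2(ratio + 1) of the mean over the gene's bins, with genes in chromosome order, bars at the median over cells and a dotted line at a ratio of 1. The medians of the 4 paternally expressed genes lie at ratios of 0.266 to 0.606, and those of the other 4 at 0 to 0.0860.

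Depth limited these calls unevenly. A ratio of 1 stood for 2.65 reads in the median cell in the MKRN3 and MAGEL2 bin, 2.04 in the NDN bin and 0.874 in the bin of the HERC2 start. A single read reached a ratio of 1 in 13 cells at MKRN3 and in 46 cells at the HERC2 start. Contacting cells had a median of 6 reads at MKRN3, 9 at NDN and 21.5 over the SNRPN bins, and the contacts that rested on 2 reads or fewer numbered 6, 3 and 2. In the 35 cells with at least 100000 reads, frequencies were 34.3% for MKRN3, 42.9% for NDN, 51.4% for SNRPN, 5.71% for UBE3A, 2.86% for ATP10A, 8.57% for OCA2 and 2.86% for HERC2.

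The median covered bin of the genome was in contact in 16.7% of cells. All bins of the paternally expressed genes lay above it, as did 1 bin of UBE3A (20.2%) and 1 of OCA2 (19.0%). Of the 16 gene bins, 6 (37.5%) were in contact in at least 20% of cells, against 30 of 59 other bins of the region (50.8%) and 47.7% of covered bins of the genome. None reached 50%, a level that 30.7% of the genome's bins reached. A frequency under 5% was seen in 6 gene bins (37.5%), against 12 of the other bins (20.3%) and 36.7% of the genome. Ranked by the mean frequency of their single bins, 34.5% for NDN and 34.1% for SNRPN, these genes stood at percentile 60.5 of the genome's bins and 75.5 of those of chromosome 15, and HERC2 at 16.5 and 12.7. The shares of gene bins at low frequency are thus near the genome's, and the differences lie among the genes.

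The gene bins averaged 15.9% (median 10.7%, 0 to 34.5%) and the other bins of the region 19.0% (median 21.4%, 1.19 to 48.8%). Within cells, the share of gene bins in contact minus that of the other bins was -3.04 ± 9.90 percentage points (SD, n = 84), higher for the gene bins in 27 cells, lower in 46 and equal in 11. The mean was -5.46 points in cells 1 to 29 and -1.27 in the cells with at least 100000 reads. None of cells 1 to 29 reached 100000 reads (at most 90564, in cell 24), so these values do not separate sample number from depth. The highest other bin, at 48.8%, had 78 expected reads, and 12 of the other bins but 0 of the gene bins had under 100 expected reads.

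The 4 paternally expressed genes exceeded OCA2 and HERC2 by 27.1 percentage points. The size depended on the cells and the cutoff, with 39.3 points in odd-numbered and 14.9 in even-numbered cells, and 11.9 at a ratio cutoff of 2. Their mean ratio was 0.933 against 0.202, a difference of 0.731 ± 1.01 (SD, n = 84), and it was higher in 66 cells, lower in 14 and equal in 4. Against UBE3A and ATP10A, whose mean ratio was 0.265, the difference was 0.668 ± 1.04, higher in 62 cells, lower in 16 and equal in 6. UBE3A and ATP10A minus OCA2 and HERC2 was 0.0632 ± 0.448. These SDs are the spread of single cells, not the error of a mean. MKRN3 and MAGEL2 share a bin, which the group means count for each. With a single copy and a single clone, expression class cannot be told apart from position along the chromosome.

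**Figure D2:**
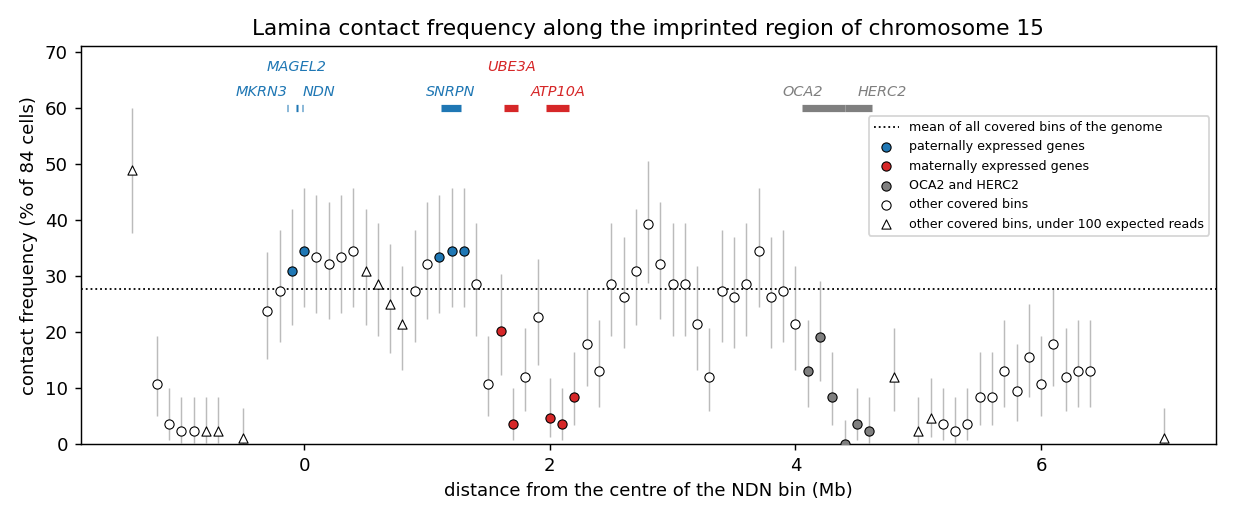
Contact frequency in percent of 84 cells against distance from the centre of the NDN bin, for the covered bins of the region, with 95% intervals. Filled points are bins of the paternally expressed genes (31.0 to 34.5%), of UBE3A and ATP10A (3.57 to 20.2%) and of OCA2 and HERC2 (0 to 19.0%), triangles are bins with under 100 expected reads, and the dotted line is the genome mean of 27.8%.

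The genes sat on a profile with 2 broad rises. The 10 bins between NDN and SNRPN, which in the reference gene order hold NPAP1, averaged 29.9% (21.4 to 34.5%), close to the genes at their ends, though 4 of them had under 100 expected reads. The highest 5-bin stretch, 24000001 to 24500000, lay there at 32.9%. The 18 bins between ATP10A and OCA2 averaged 26.1% (11.9 to 39.3%). The next stretches, 26600001 to 27100000 at 31.9% and 27300001 to 27800000 at 28.6%, were both between these genes.

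ATP10A and the second bin of UBE3A lay in the trough between these rises. The steepest steps between adjacent bins were beside UBE3A and at ATP10A. Frequency was 10.7% in the bin at 25400001 against 28.6% in the bin before it, and 4.76% in the first ATP10A bin against 22.6% in the bin before it. At this second step 17 cells had contact in the preceding bin alone, 2 in the ATP10A bin alone and 2 in both. After HERC2, 17 bins averaged 8.89% (1.19 to 17.9%), and none reached 20%. The lowest stretches were 22800001 to 23300000 at 2.62%, before MKRN3, and 28900001 to 29400000 at 3.33% and 29400001 to 29900000 at 11.0%, after HERC2. The first 2 of these held bins with as few as 16 and 12 expected reads.

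**Figure D3:**
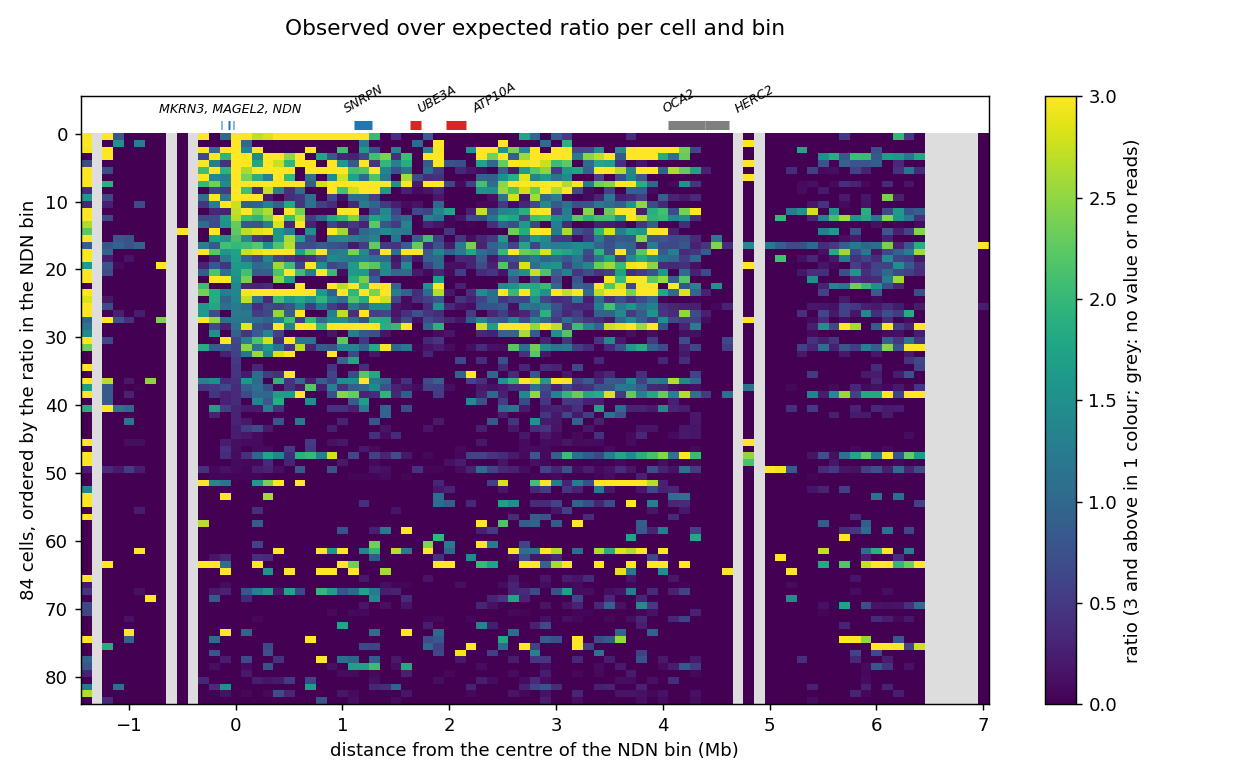
Ratio per bin (distance from the centre of the NDN bin, Mb) and cell, for 84 cells ordered by their ratio in the NDN bin, with grey for bins without value or reads and 1 colour for ratios of 3 and above. The 29 cells with NDN in contact, at the top, often carry high ratios up to SNRPN and again between ATP10A and OCA2, and low ones at ATP10A and HERC2.

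Any paternally expressed gene was in contact in 43 cells (51.2%), and all 4 were in 16 (19.0%). Either of UBE3A and ATP10A was in contact in 11 cells, and either of OCA2 and HERC2 in 11. None of the 8 genes was in contact in 37 cells. The paternally expressed genes alone were in contact in 27 cells, together with OCA2 or HERC2 in 7, with UBE3A or ATP10A in 7, and with both classes in 2. Contact of UBE3A or ATP10A without the others occurred in 2 cells, and of OCA2 or HERC2 without the others in 2. Of the 11 cells with UBE3A or ATP10A in contact, 9 thus also had a paternally expressed gene in contact, as did 9 of the 11 with OCA2 or HERC2.

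Contact at NDN and SNRPN, 1.2 Mb apart, went together. Both were in contact in 24 cells, NDN alone in 5 and SNRPN alone in 8. SNRPN was in contact in 82.8% of the cells with NDN in contact and in 14.5% of the other cells. The correlation of log2(ratio + 1) over 84 cells, after a linear correction for each cell's genome-wide contact share, was r = 0.63 (Spearman 0.72, and 0.65 without the 2 cells farthest from the median). It was 0.52 when corrected for the share of chromosome 15 outside the region instead. The points share libraries and depth, and no test was made. As a yardstick, among 25904 bins of other chromosomes the highest correlation with NDN was 0.54 and the 99th percentile 0.28.

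For MKRN3 and MAGEL2 the most similar gene was NDN (r = 0.40, with 19 cells in contact at both). This pair had a Spearman correlation of 0.54, r = 0.51 without the 2 cells farthest from the median, and r = 0.85 in the 35 cells with at least 100000 reads, where NDN and SNRPN had 0.75. For UBE3A it was SNRPN (r = 0.45), for ATP10A OCA2 (0.23), for OCA2 SNRPN (0.42) and for HERC2 MKRN3 (0.28). The highest correlation with a bin of another chromosome was larger than this in each of these genes, from 0.48 for OCA2 to 0.89 for HERC2, so none of them exceeded the highest such bin. Against the 99th percentile of those bins, MKRN3 (0.31), UBE3A (0.30) and OCA2 (0.31) lay above it, and ATP10A (0.39) and HERC2 (0.56) below it. UBE3A and OCA2 were in contact together in 0 cells, as were OCA2 and HERC2. UBE3A was in contact in 8 cells and OCA2 in 9, too few for this 0 to show that they exclude each other. The ratios of UBE3A and OCA2 had r = 0.17 and a Spearman correlation of 0.41. The 5 pairs among paternally expressed genes in separate bins averaged 0.40, the 16 pairs of these with the others 0.24, and the 5 pairs among the others 0.16. The shared bin of MKRN3 and MAGEL2 enters these averages for each gene, and without MAGEL2 they were 0.44 over 3 pairs and 0.25 over 12. With the chromosome 15 correction the averages were 0.27, 0.12 and 0.047, and in the 35 cells with at least 100000 reads they were 0.71, 0.37 and 0.53. Pairs among the paternally expressed genes also lie closer together than most of the others.

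**Figure D4:**
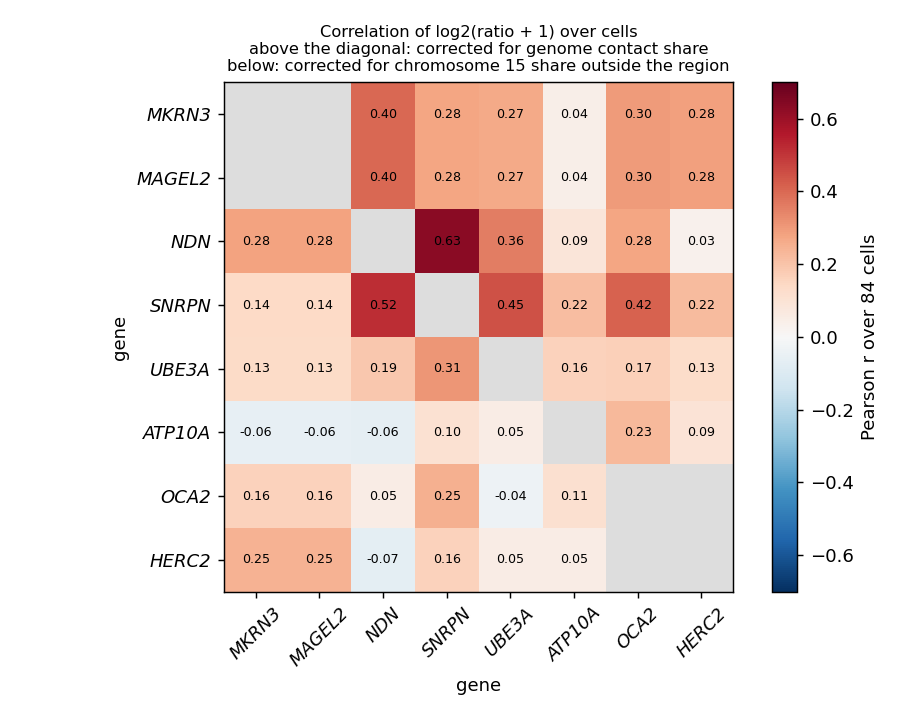
Pearson r of log2(ratio + 1) over 84 cells for each pair of genes, corrected for genome-wide contact share above the diagonal and for the chromosome 15 share outside the region below it, with grey for pairs that share a bin. NDN and SNRPN have the highest value, 0.63 above the diagonal and 0.52 below it.

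Cells with NDN in contact differed in other measures. Their contact share had a median of 31.3%, against 26.0% in the other 55 cells, their chromosome 15 share outside the region 31.5% against 13.3%, and their reads in the deeper column 105301 against 58306. The part of depth in the NDN contacts was not tested. The bins between NDN and SNRPN, averaged, were in contact in 82.8% of the cells with NDN in contact and in 16.4% of the others. Those between ATP10A and OCA2 were in contact in 65.5% against 10.9%, and those after HERC2 in 13.8% against 9.09%. The other segments also went with NDN, with 41.4% against 5.45% for the bins before MKRN3, 44.8% against 7.27% between SNRPN and UBE3A, and 37.9% against 5.45% between UBE3A and ATP10A. Their r with NDN was 0.53, 0.46 and 0.54, next to 0.57 for the bins between ATP10A and OCA2, 0.67 for those between NDN and SNRPN and 0.33 for those after HERC2.

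Contacts reached unequal distances. Unbroken runs of bins in contact through NDN had a median length of 0.6 Mb over 29 cells, and 4 of them reached 1 Mb, with a longest run of 1.6 Mb in cell 28. At a ratio cutoff of 2 the median was 0.2 Mb. Of these 29 runs, 9, the longest included, ended at a bin without reads, as did 11 at MKRN3, 1 at SNRPN and 2 at HERC2, so that these lengths are lower limits. Runs through MKRN3 and MAGEL2 had a median of 0.45 Mb over 26 cells and those through any SNRPN bin 0.2 Mb over 46 cells. Runs at UBE3A had a median of 0.1 Mb over 19 cells, 13 of them a single bin, and those at HERC2 were all single bins, in 5 cells. Runs at OCA2 had a median of 0.15 Mb over 20 cells, yet the longest, in cell 23, spanned 2 Mb. The NDN run reached SNRPN in 2 of 29 cells and covered all its bins in 1, and it passed UBE3A in 0. Between NDN and SNRPN lie 4 bins, 24400001 to 24800000, with 45 to 71 expected reads. Each of them had no read in 44 to 59 cells, so a break in a run there cannot be told from a lack of reads.

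The 15 bins from MKRN3 to SNRPN, 4 of them with 45 to 71 expected reads, were seldom called in contact as a whole. None was in contact in 28 cells and all were in 1, cell 25. At least 75% of them were in contact in 10 cells, at most 25% in 42, and a share between these in 32. The 10 cells at 75% or more had a median of 99708 reads, and the 28 cells without contact there a median of 84796. Genome-wide contact shares had a median of 32.8% in these 10 cells and 26.3% in these 28. Cell 79 stood apart, with chromosome 15 at 3.56% of its expected reads. It was 1 of 13 cells with no read in the 16 gene bins in the lower-numbered column.

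Cells 1 to 29 and 30 to 86 gave frequencies of 41.4% and 25.5% for MKRN3, 37.9% and 32.7% for NDN, and 37.9% and 38.2% for SNRPN. For UBE3A they were 17.2% and 5.45%, for ATP10A 6.90% and 5.45%, for OCA2 17.2% and 7.27%, and for HERC2 3.45% and 1.82%. The 4 paternally expressed genes were above the other 4 in both sets. All 35 cells with at least 100000 reads were among cells 30 to 86, so the sets differ in depth. Odd-numbered and even-numbered cells differed more for some genes, with 50.0% and 19.0% for NDN, 54.8% and 21.4% for SNRPN, and 40.5% and 21.4% for MKRN3. These NDN and SNRPN values all lie outside the intervals over 84 cells. Other genes differed less between odd-numbered and even-numbered cells than between the sets. These were UBE3A (11.9% and 7.14%), OCA2 (11.9% and 9.52%) and HERC2 (2.38% in both). ATP10A had 4.76% and 7.14%. What the sample numbers stand for is not given in the labels.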

How the data were processed

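Single-cell LaminB1 DamID was measured in haploid KBM7 cells. The deposited values are ratios of observed over expected reads per 100 kb bin of hg19. Per the submitters' processing notes, cutadapt and Bowtie2 2.1.0 were used, and what the expectation was built from is not given in the sources used here. Samples 81, 82, 167 and 168 are not analysed here.

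Columns 86 numbers apart held the same cell, as judged by read correlation and a chi-square per bin, and their ratios were averaged. Reads per bin were worked back from the steps of the ratios. 100% of values came out whole within 0.02, with 1 to 592 expected reads per bin (median 316). The expected reads were chosen to make the values whole, so this share is no separate check of them. The recovery was tested on simulated data drawn around the recovered reads. Reads were amplified by PCR and carry no molecular identifiers, so they are not independent molecules and intervals cover counting error only.

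A gene's ratio was the mean over its bins. The members and lists were chosen with earlier results of these data known. All 8 genes were named, with the 3 highest and 3 lowest stretches of 5 bins outside them, and the most similar gene to each. Gene positions were those given for hg19, and promoter windows and gene order came from RefSeq, GRCh38.p14, with no conversion. Genes between ATP10A and OCA2 are not reported here. Since the 172 samples form 1 group, no test was run. Other contact cutoffs, scalings, gene rules, single columns, corrections and subsets of cells were tried. Python 3.11.15, numpy 2.4.6, scipy 1.17.1, pandas 2.3.3 and matplotlib 3.10.9 were used.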

Additional observations from a re-analysis of the deposited data

How the results depend on the processing

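Under 17 alternatives, 139 distinct values could change, that is without MAGEL2, which copies MKRN3, the correlation at other cutoffs and the gene rules for genes of 1 bin. Of these, 106 stayed within their 95% interval and 33 moved further. Of the differences and correlations 0 changed sign, and frequencies and run lengths cannot fall below 0. For gene frequencies the interval was the Clopper-Pearson interval. The differences used the SD over cells, the correlation Fisher's z and the run length ranks of cells. The latter intervals treat cells of 1 clone as replicates and serve only to mark values that moved. The lowest of the 4 paternally expressed genes was above the highest of the other 4 in all 17 settings for genes, the main one and 2 chosen after seeing the data included. The difference between the paternally expressed genes and OCA2 with HERC2, 27.1 percentage points, was 17.3 at a cutoff of 1.5, 11.9 at a cutoff of 2, 39.3 in odd-numbered cells and 14.9 in even-numbered cells. The median NDN run was 0.2 Mb at a cutoff of 2, against 0.6 Mb. The mean correlation among paternally expressed genes was 0.711 in cells with at least 100000 reads, against 0.399, and the gene bins minus the other bins of the region gave -5.46 points in cells 1 to 29, against -3.04. The cause of these moves was not tested. Over all settings MKRN3 ranged between 9.52 and 41.4%, NDN between 19.0 and 50.0% and SNRPN between 11.9 and 54.8%. UBE3A ranged between 1.19 and 25.0%, ATP10A between 0 and 14.3%, OCA2 between 0 and 23.8% and HERC2 between 0 and 5.95%. The values under the 3 alternatives added after seeing the data (cells 48, 54 and 56 left out, cells 63, 69 and 79 left out, and sparse bins left out) all stayed within their 95% interval. Leaving out 3 cells can move a frequency only little. No pairing of samples between groups was possible because the labels give 1 group, with no second group to pair with. The differences within cells are descriptions. At the low read numbers per bin, intervals cover counting error only, and a ratio of 1 can be a single read.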
